A study of Mus musculus with 6 samples.

Results

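Imprinted genes are described here by the ATAC-seq peaks at and around their transcription start sites in mouse embryonic stem cells (ESCs) and in 2 types of expanded potential stem cells (EPSCs). The members were taken from a list of 39 imprinted genes, coding and noncoding, given by name. The list was drawn up with earlier results of these data known, though no measured value enters the rule. Of these, 37 were in the annotation used (GENCODE M1, on the mouse build mm9), out of 26212 annotated genes of the same 3 biotypes (protein-coding, lincRNA and processed transcript). The noncoding genes Kcnq1ot1 and Peg13 were not in it and are not analysed here. The 37 genes comprised 32 coding and 5 noncoding genes.

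In an imprinted gene, 1 of the parental copies is silenced according to the parent it came from. The mark that tells the copies apart is DNA methylation at a differentially methylated region (DMR), set in the germ line on the maternal or the paternal chromosome and kept after fertilisation, in part by the zinc finger protein ZFP57, which binds methylated TGCCGC. Many paternally expressed genes have their promoter inside a maternally methylated DMR, so that the maternal promoter is methylated and silent, and imprinted genes are often clustered in domains that share a control region. Mouse pluripotent cells kept in culture are known to lose or alter some of these marks.

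ATAC-seq uses the Tn5 transposase to cut open DNA, so that sequenced fragments pile up in accessible chromatin. The 6 libraries came from 3 cell states, each with 2 technical replicates, and the authors deposited 1 list of peaks for each state. ESCs were of the J1 line, from the 129SV strain, and were cultured with serum, LIF and the inhibitors CHIR99021 and PD0325901. D-EPSCs were derived from them in N2B27 medium with knockout serum replacement, LIF, CHIR99021, dimethindene maleate and minocycline hydrochloride. L-EPSCs were derived from them in DMEM/F12 with knockout serum replacement, LIF, CHIR99021, PD0325901, A-419259, XAV939, JNK inhibitor VIII and SB203580. All states thus share LIF and CHIR99021 and come from a single line, and ESCs were grown on feeders or gelatin while EPSCs were taken off feeders before the assay. A list gives the position of each peak and no height, so the measurements are whether a peak was present, where it lay and how wide it was. A missing peak says that none was called at a depth that is unknown here, not that the chromatin was closed. The ATAC-seq reads of the parental copies were not separated.

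The lists held 28965 peaks for ESCs, 50225 for D-EPSCs and 46601 for L-EPSCs, and over all genes more had a start peak in either EPSC list than in ESCs. Of 10 pluripotency markers, 8 had a start peak in ESCs and all 10 had a start peak in either EPSC list. Of 10 fibroblast markers, 2 had a start peak in ESCs, against 6 in D-EPSCs and 3 in L-EPSCs, and Col3a1, Postn, Lum and Dcn had none in any list. Both marker lists were chosen after values of these data had been seen, and what part feeder cells have in the results below was not tested. With 1 list per state there is no spread between replicates and no test of a difference, so the values below are descriptions, set beside the same values over all genes.

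The sequences of 5 regions are shown, because each lies at a start of a gene whose promoter is in a maternally methylated DMR, was called in D-EPSCs and in L-EPSCs but not in ESCs, and holds the letters TGCCGC. Each is 300 bp around the midpoint of the merged peaks, read 5′ to 3′ on the plus strand of mm9. Capitals mark TGCCGC on either strand (GCGGCA on the plus strand) and, in the Peg3 region, also the letters AAGATGGCG, which match the YY1 consensus AANATGGCG.
Nap1l5, chr6:58856923-58857222: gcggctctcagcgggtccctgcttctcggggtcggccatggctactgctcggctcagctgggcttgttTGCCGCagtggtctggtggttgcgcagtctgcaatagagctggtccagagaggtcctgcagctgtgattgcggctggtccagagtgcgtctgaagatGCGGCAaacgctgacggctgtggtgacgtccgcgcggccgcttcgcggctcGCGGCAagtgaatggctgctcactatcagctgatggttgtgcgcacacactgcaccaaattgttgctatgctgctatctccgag
Mest, chr6:30688023-30688322: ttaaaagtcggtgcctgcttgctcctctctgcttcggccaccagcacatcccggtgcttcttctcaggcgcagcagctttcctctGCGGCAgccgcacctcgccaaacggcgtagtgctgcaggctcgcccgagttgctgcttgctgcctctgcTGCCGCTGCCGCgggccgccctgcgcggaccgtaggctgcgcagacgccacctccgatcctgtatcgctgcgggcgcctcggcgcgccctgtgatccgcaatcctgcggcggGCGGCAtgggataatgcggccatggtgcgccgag
Plagl1, chr10:12810531-12810830: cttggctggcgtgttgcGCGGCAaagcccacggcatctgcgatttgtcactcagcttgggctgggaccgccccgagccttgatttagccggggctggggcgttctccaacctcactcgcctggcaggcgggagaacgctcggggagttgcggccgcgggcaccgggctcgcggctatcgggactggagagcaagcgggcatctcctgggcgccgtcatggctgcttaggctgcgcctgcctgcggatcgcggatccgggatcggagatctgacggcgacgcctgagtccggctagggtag
Airn, chr17:12934257-12934556: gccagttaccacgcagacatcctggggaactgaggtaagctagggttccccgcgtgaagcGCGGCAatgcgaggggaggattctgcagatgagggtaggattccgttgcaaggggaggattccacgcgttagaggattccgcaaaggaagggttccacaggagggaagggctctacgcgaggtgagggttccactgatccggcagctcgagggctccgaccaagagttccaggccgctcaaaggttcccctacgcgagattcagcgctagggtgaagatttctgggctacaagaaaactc
Peg3, chr7:6682121-6682420: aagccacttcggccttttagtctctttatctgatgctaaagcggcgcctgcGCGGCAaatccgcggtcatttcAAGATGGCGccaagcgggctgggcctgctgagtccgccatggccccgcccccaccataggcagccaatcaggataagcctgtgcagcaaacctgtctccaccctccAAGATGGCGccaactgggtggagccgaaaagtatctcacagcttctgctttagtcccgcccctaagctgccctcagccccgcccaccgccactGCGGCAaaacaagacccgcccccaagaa
The Mest window holds TGCCGC 4 times, the Nap1l5 window 3 times and the Peg3 window 2 times, while the Plagl1 and Airn windows hold it 1 time each.

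Imprinted genes had start peaks in ESCs about as often as genes in general, and, with the lists at full length, more often in EPSCs. A start peak is a peak within 1 kb of any annotated start of the gene. In ESCs 18 of the 37 members had one (48.6%), beside 48.9% of all genes. In D-EPSCs 31 had one (83.8%, beside 60.8% of all genes), and in L-EPSCs 27 had one (73.0%, beside 58.0%). With these full lists, no member had a start peak in ESCs without having one in D-EPSCs. Among only the 28965 widest peaks of each list, the direction held for D-EPSCs (28 members, beside 55.8% of all genes) and turned for L-EPSCs, in which 16 of the 37 members had a start peak, fewer than the 18 in ESCs and beside 53.4% of all genes.

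By the lists in which they had a start peak, the members fell into 6 of the 8 possible patterns. A start peak in all 3 lists was found for 14 members (37.8%, beside 47.8% of all genes). A start peak in both EPSC lists and not in ESCs was found for 12 members (32.4%, beside 8.87%). A start peak in ESCs and D-EPSCs and not in L-EPSCs was found for 4 members (10.8%, beside 0.572%). Igf2 had one in D-EPSCs only, as did 3.56% of all genes, and Dlk1 in L-EPSCs only, as did 1.08%. The remaining 5 members (13.5%, beside 37.5%) had none. Counting the outermost start of each gene alone, 9 members had none, beside 40.5% of all genes. Among genes with a start peak in both EPSC lists, 12 of the 26 members (46.2%) lacked one in ESCs, against 15.7% of all such genes.

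The count of members with start peaks in both EPSC lists only rested in part on narrow peaks. When each list was limited to its 28965 widest peaks, the length of the ESC list, it fell from 12 to 6 members, beside 5.82% of all genes. Impact, Meg3, Mest, Mkrn3, Nnat and Zdbf2 kept the pattern, and Airn, Nap1l5, Peg10, Plagl1, Rasgrf1 and Sgce did not. Impact kept it through its widest EPSC peaks, which overlapped an ESC peak lying 1009 bp from the start. Its place among the 6 thus rested on the limit of 1 kb. With the distance to a start raised to 2.5 kb, 9 members had the pattern (beside 2358 of the 26212 genes), because ESC peaks then reached Impact, Peg10 and Sgce.

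**Figure D1:**
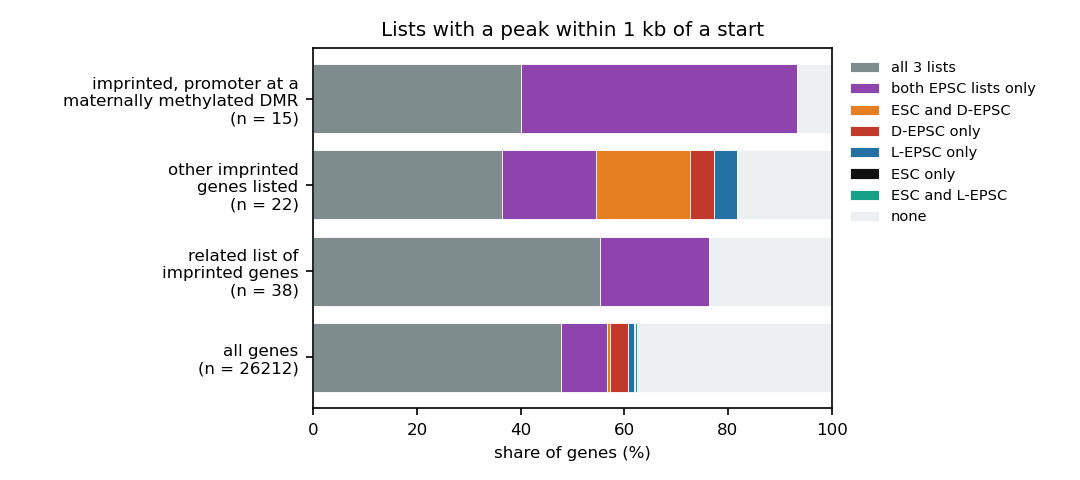
Share of genes (%, x axis) by the lists with a peak within 1 kb of an annotated start, for 15 imprinted genes with a promoter at a maternally methylated DMR, 22 other imprinted genes listed, 38 further imprinted genes and all 26212 genes. The segment for both EPSC lists only covers 53.3% of the first bar, 18.2% of the second, 21.1% of the third and 8.87% of the fourth.

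The members split by where their promoter lies. Of the 15 members whose promoter is in a maternally methylated DMR, as assigned from general knowledge of mouse imprinting, 8 (53.3%) had start peaks in both EPSC lists only, 6 (40.0%) had them in all 3 lists and Usp29 had none. The DMR was assigned by gene, while a start peak was counted at any annotated start, which need not be the DMR promoter. Usp29 is such a case, being annotated only from a start apart from that promoter. Of the 22 other members, 4 (18.2%) had them in both EPSC lists only, 8 in all 3 lists, 4 in ESCs and D-EPSCs, 1 in D-EPSCs only, 1 in L-EPSCs only and 4 in none. The median number of annotated starts per gene was 6 in the DMR group, 2 in the other members and 2 over all genes. The DMR group thus had more places at which a start peak could be counted. At equal list length the pattern of both EPSC lists only held 3 of the 15 members (Impact among them) and 3 of the 22. With starts within 2.5 kb it held 5 and 4, and with the outermost start only 7 and 3. Peg10 and Sgce share a start region, so these genes are not independent of each other. By the allele expressed, 11 of 23 paternally expressed members (47.8%) had start peaks in both EPSC lists only, and Meg3 was the only 1 of 13 maternally expressed members. That division overlaps with the one by DMR and was not tested apart from it.

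Airn, Plagl1, Nap1l5, Mest, Nnat, Peg10, Sgce and Impact were the 8 members with a promoter in a maternally methylated DMR and start peaks in both EPSC lists only. Airn, the noncoding RNA that silences Igf2r on the paternal chromosome, had a start peak of 598 bp in D-EPSCs versus 148 bp in L-EPSCs. Its region at chr17:12934103-12934711 lies in an intron of Igf2r, and the nearest ESC peak was 28168 bp from an Airn start. That ESC peak was the one at the Igf2r promoter, so at this domain the ESC list held the promoter of the coding gene and not that of the noncoding RNA.

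Plagl1 encodes a zinc finger protein that restrains cell growth, and its widest start peak was 634 bp in D-EPSCs versus 271 bp in L-EPSCs. Its nearest ESC peak was 5081 bp away. Nap1l5, an intronless gene inside an intron of Herc3, had a start peak of 232 bp in D-EPSCs versus 175 bp in L-EPSCs, and the closest peak of ESCs was 75025 bp away. By the widest start peak of each gene, Nap1l5 had the narrowest of the 8 genes in both EPSC lists apart from Airn in L-EPSCs, and the distance to an ESC peak was the longest.

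Mest, a hydrolase gene highly expressed in mesoderm, had start peaks of up to 436 bp in D-EPSCs versus 475 bp in L-EPSCs, with no ESC peak within 29576 bp. Nnat, a neuronal membrane proteolipid gene, had start peaks of up to 343 bp and 290 bp, with the nearest ESC peak 5445 bp away. The widest L-EPSC peak at Mest lay at another annotated start than the D-EPSC one, and at the start whose sequence is printed above the widths were 436 bp (D-EPSCs) and 245 bp (L-EPSCs).

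Peg10, a retrotransposon-derived gene needed in the placenta, and Sgce, the epsilon-sarcoglycan gene, are read in opposite directions from 1 shared region. Its peak was 719 bp in D-EPSCs versus 219 bp in L-EPSCs. An ESC peak of 412 bp lay 1760 bp from a Peg10 start and 1862 bp from a Sgce start, where both EPSC lists also held a peak. The lists thus differed at the shared start and not at this neighbouring site, and with lists of equal length or a distance of 2.5 kb these genes no longer had the pattern.

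Impact, a regulator of translation, had the widest start peaks of these genes, 1450 bp in D-EPSCs versus 1419 bp in L-EPSCs, beside narrow peaks of 208 bp and 213 bp at its outermost start. An ESC peak of 449 bp lay 1009 bp from the start, just outside the distance of 1 kb, and overlapped the wide EPSC peaks. Impact was the only 1 of the 12 members whose widest EPSC start peak was overlapped by an ESC peak.

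**Figure D2:**
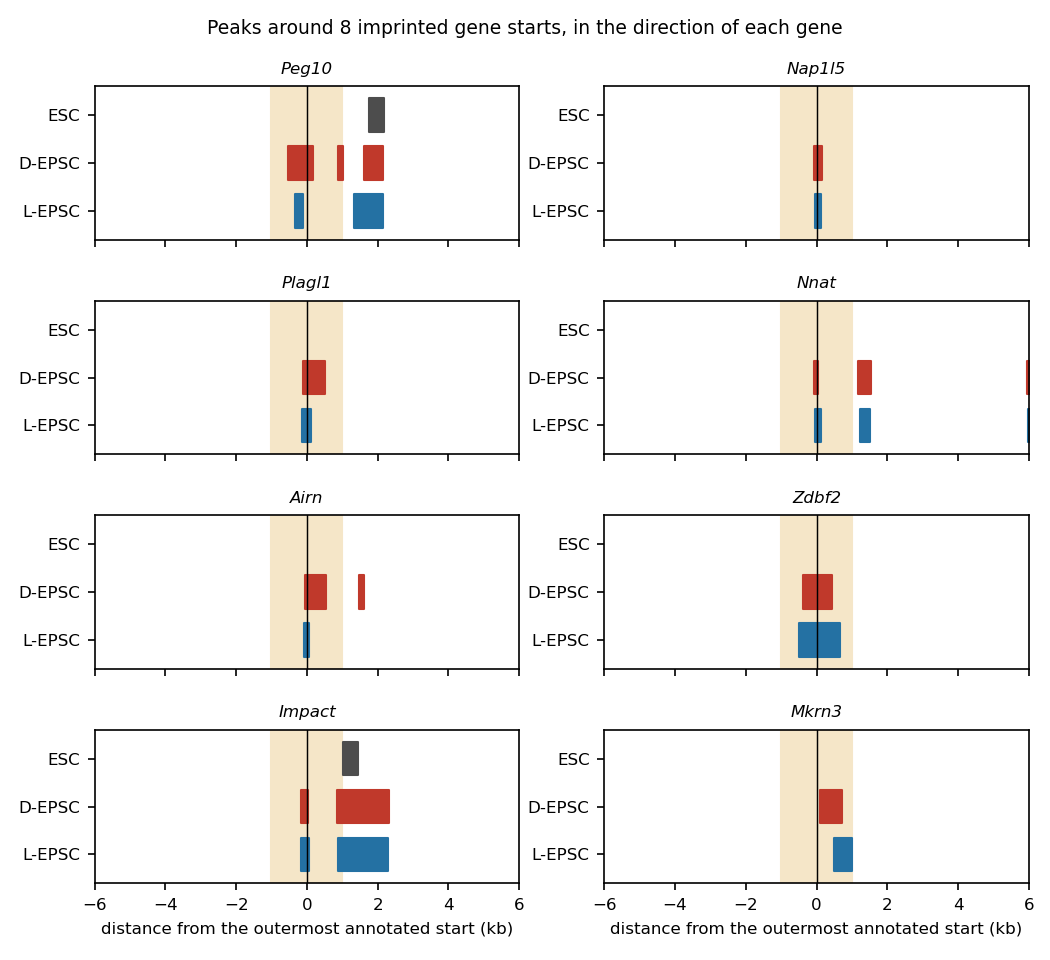
Peaks of each list (rows) around the starts of Peg10, Nap1l5, Plagl1, Nnat, Airn, Zdbf2, Impact and Mkrn3, with the distance from the outermost annotated start in kb on the x axis, positive in the direction of the gene, and the 1 kb on either side shaded. D-EPSC and L-EPSC peaks lie in the shaded part in every panel; the ESC row is empty except at Peg10 (412 bp peak) and Impact (449 bp peak), both outside it.

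Mkrn3, Zdbf2, Rasgrf1 and Meg3 had the same pattern with a promoter that was not counted as a maternally methylated germline DMR. Mkrn3, a makorin ring finger gene in the Snrpn domain, had start peaks of 629 bp in D-EPSCs versus 513 bp in L-EPSCs, with the nearest ESC peak 32475 bp away. Zdbf2, a zinc finger gene expressed from the paternal copy, had start peaks of 802 bp and 1144 bp, with the nearest ESC peak 25101 bp away. Rasgrf1, a guanine nucleotide exchange factor gene, had start peaks of 330 bp and 270 bp, with the nearest ESC peak 9076 bp away. Zdbf2 and Meg3 were wider in L-EPSCs than in D-EPSCs, and Mkrn3 and Rasgrf1 were narrower.

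Meg3, the noncoding RNA of the Dlk1-Dio3 domain, is expressed from the maternal copy, and its silencing is a known defect of mouse pluripotent lines. At an internal start of Meg3 the D-EPSC list had a peak of 464 bp and the L-EPSC list an overlapping peak of 976 bp. At the outermost start only L-EPSCs had a peak (227 bp). The nearest ESC peak was 179 bp wide and lay 15030 bp from a start, upstream of the gene. Upstream of Meg3, in the stretch between Dlk1 and Meg3 where the control region of the domain lies, D-EPSCs had a peak of 898 bp and L-EPSCs one of 680 bp. On the coordinates of the Meg3 start these ran from -12.09 to -11.20 kb and from -11.88 to -11.20 kb, and ESCs had no peak there.

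Over the whole Dlk1-Dio3 domain of 848 kb there were 4 peaks in ESCs, 20 for D-EPSCs and 11 for L-EPSCs. These merged into 24 regions, of which 12 were found in D-EPSCs only, 5 in both EPSC lists only, 3 in L-EPSCs only, 3 in all 3 lists and 1 in ESCs only. Around all genes the shares of regions were 20.9%, 18.6%, 14.9%, 36.6% and 4.28% in that order. The whole D-EPSC list was 1.73 times as long as the ESC list, and the L-EPSC list 1.61 times. Dlk1, the gene of a transmembrane protein related to Notch ligands, had a start peak of 156 bp in L-EPSCs, while the nearest D-EPSC peak was 2837 bp and the nearest ESC peak 14853 bp from its starts. Dio3, the deiodinase gene at the other end, had start peaks in all 3 lists, of 259 bp in ESCs, versus 458 bp (D-EPSCs) and 1052 bp (L-EPSCs). Rtl1, Rian and Mirg, which lie between Meg3 and Dio3, had no start peak in any list.

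**Figure D3:**
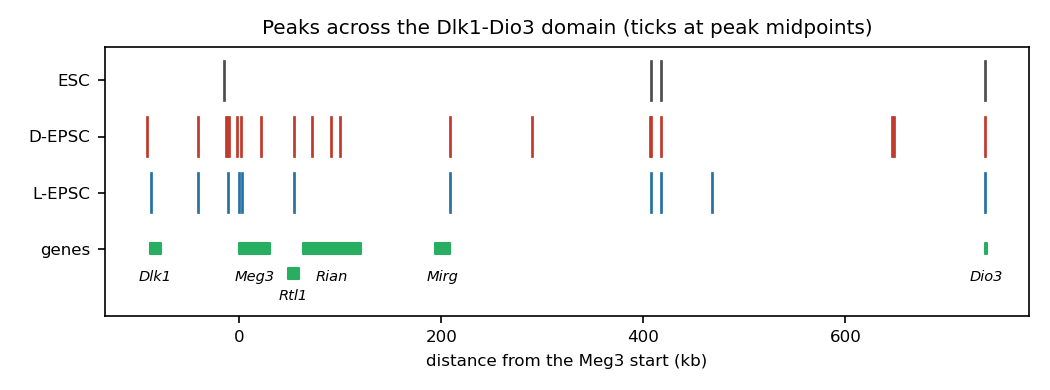
Peak midpoints (ticks) of the 3 lists across the Dlk1-Dio3 domain, with the distance from the outermost Meg3 start in kb on the x axis and the annotated members as bars. The 4 ESC ticks lie upstream of Meg3, towards Dio3 and at Dio3, with none from Meg3 to Mirg, while the 20 D-EPSC and 11 L-EPSC ticks also fall around Meg3.

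Kcnq1, Phlda2, Slc22a3 and Magel2 were the 4 members with start peaks in ESCs and D-EPSCs and not in L-EPSCs. Kcnq1, a potassium channel gene, had a start peak of 339 bp in ESCs and 630 bp in D-EPSCs, with the nearest L-EPSC peak 5200 bp away. Phlda2, which restrains placental growth, had peaks of 219 bp and 330 bp, with the nearest L-EPSC peak 3139 bp away. Both genes lie in the Kcnq1 domain and are expressed from the maternal copy.

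Slc22a3, an organic cation transporter gene in the Igf2r domain and also maternally expressed, had start peaks of 659 bp in ESCs and 699 bp in D-EPSCs, and the nearest L-EPSC peak was 27135 bp away. Magel2, a MAGE family gene of the Snrpn domain expressed from the paternal copy, had narrow peaks of 210 bp and 211 bp, and the nearest L-EPSC peak was 28636 bp away. All 4 D-EPSC peaks overlapped the ESC peak of the same gene. With lists of equal length 6 members had this pattern, beside 1.57% of all genes.

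Within the long Kcnq1 gene, its 4 intronic ESC peaks were overlapped in both EPSC lists, while 3 further intronic peaks were found in D-EPSCs only and 1 in L-EPSCs only. The widest of the 4 shared sites in D-EPSCs was 939 bp, at chr7:150481913-150482851, with 217 bp in ESCs and 486 bp in L-EPSCs. Igf2, the growth factor gene, had a start peak of 531 bp in D-EPSCs only. It lay at an internal start, 7251 to 7781 bp downstream of the outermost start, which had no peak within 1 kb in any list. H19, the noncoding RNA that shares a control region with Igf2, had no peak in any list within 10 kb, and its nearest peaks were 20272 bp away in ESCs, 23265 bp in D-EPSCs versus 32729 bp in L-EPSCs. It was the only member without a peak of any list in that distance.

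The other members with no start peak were Usp29, Rtl1, Rian and Mirg. Usp29, a ubiquitin protease gene, is annotated here from a start apart from the promoter it shares with Peg3, and its nearest peaks were 37797 bp away in ESCs, 5071 bp in D-EPSCs versus 15872 bp in L-EPSCs. Rtl1, a retrotransposon-derived gene, had its nearest peaks 74359 bp away in ESCs, 4993 bp in D-EPSCs versus 5057 bp in L-EPSCs. Rian, a host of small nucleolar RNAs, had them 77974, 1888 and 8672 bp away, and Mirg, a host of microRNAs, 209010, 11451 and 12067 bp away, in the same order. For each of these 4 genes the nearest D-EPSC peak was closer than the nearest ESC peak.

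Of the 14 members with a start peak in all 3 lists, the 5 with the widest peaks on average were Ube3a, Gnas, Inpp5f, Grb10 and H13. Ube3a, the ubiquitin ligase gene silenced on the paternal copy in neurons, had nearly equal peaks of 1266 bp in ESCs, versus 1280 bp (D-EPSCs) and 1228 bp (L-EPSCs). Gnas, which encodes the stimulatory G protein alpha subunit, had 574 bp in ESCs, versus 1488 bp (D-EPSCs) and 1306 bp (L-EPSCs). Inpp5f, a phosphatase gene, had 1031, 1113 and 1122 bp in that order at the start with a peak in every list, a peak of 473 bp in ESCs only at 1 internal start and a peak of 482 bp in D-EPSCs only at another.

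Grb10, an adaptor that restrains growth, and H13, a signal peptide peptidase gene, had narrow ESC peaks and wide EPSC peaks. Grb10 had 168 bp in ESCs, versus 1269 bp (D-EPSCs) and 1055 bp (L-EPSCs), a log2 ratio of 2.92 and 2.65 to ESCs. H13 had 188, 1069 and 751 bp, a log2 ratio of 2.51 and 2.00. These were the largest D-EPSC to ESC ratios among the 14 members.

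Mcts2, Cdkn1c, Zim1, Peg3 and Ndn had the narrowest start peaks on average. Mcts2, a retrogene inside an H13 intron, had 306 bp in ESCs, versus 502 bp (D-EPSCs) and 488 bp (L-EPSCs). Cdkn1c, the cyclin-dependent kinase inhibitor p57, had 169, 760 and 275 bp. Zim1, a zinc finger gene next to Peg3, had 452, 432 and 275 bp, and was the only 1 of the 14 that was narrower in D-EPSCs than in ESCs.

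Peg3, a zinc finger gene, had 207 bp in ESCs, versus 285 bp (D-EPSCs) and 184 bp (L-EPSCs) at its start. Within its first part the EPSC lists also had an intronic peak of 127 bp and 176 bp with no ESC peak, which is the Peg3 region whose sequence is given above. Ndn, a MAGE family gene of the Snrpn domain, had 233, 312 and 124 bp. The remaining 4 of the 14 members were Dio3, Snrpn, Igf2r and Peg12, whose ESC peaks of 258 to 527 bp were narrower than those of both EPSC lists.

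Start peaks present in all 3 lists were wider in EPSCs than in ESCs for most members. The D-EPSC peak was wider than the ESC peak in 13 of 14 members, with a median log2 ratio of 0.77, and the L-EPSC peak in 10 of 14, with a median of 0.67. Over all genes with a start peak in all 3 lists the medians were 0.44 and 0.35, and 10336 of 12517 genes were wider in D-EPSCs and 9653 in L-EPSCs, so the share of members that were wider in L-EPSCs was below that of all genes. The members' median widths were 282.5 bp in ESCs, 663.5 bp for D-EPSCs and 694.5 bp for L-EPSCs, against 546, 788 and 738 bp over all such genes, so the median member peak was narrower than that of genes in general in every list. Gene by gene, 10 of the 14 members were wider in D-EPSCs than in L-EPSCs, with a median log2 ratio of 0.23 (beside 7345 of 12517 genes and a median of 0.06), although the L-EPSC median width was the higher. For the members with start peaks in both EPSC lists only, the median width was 613.5 bp in D-EPSCs versus 280.5 bp in L-EPSCs, against 554 and 446 bp over all genes of that pattern.

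**Figure D4:**
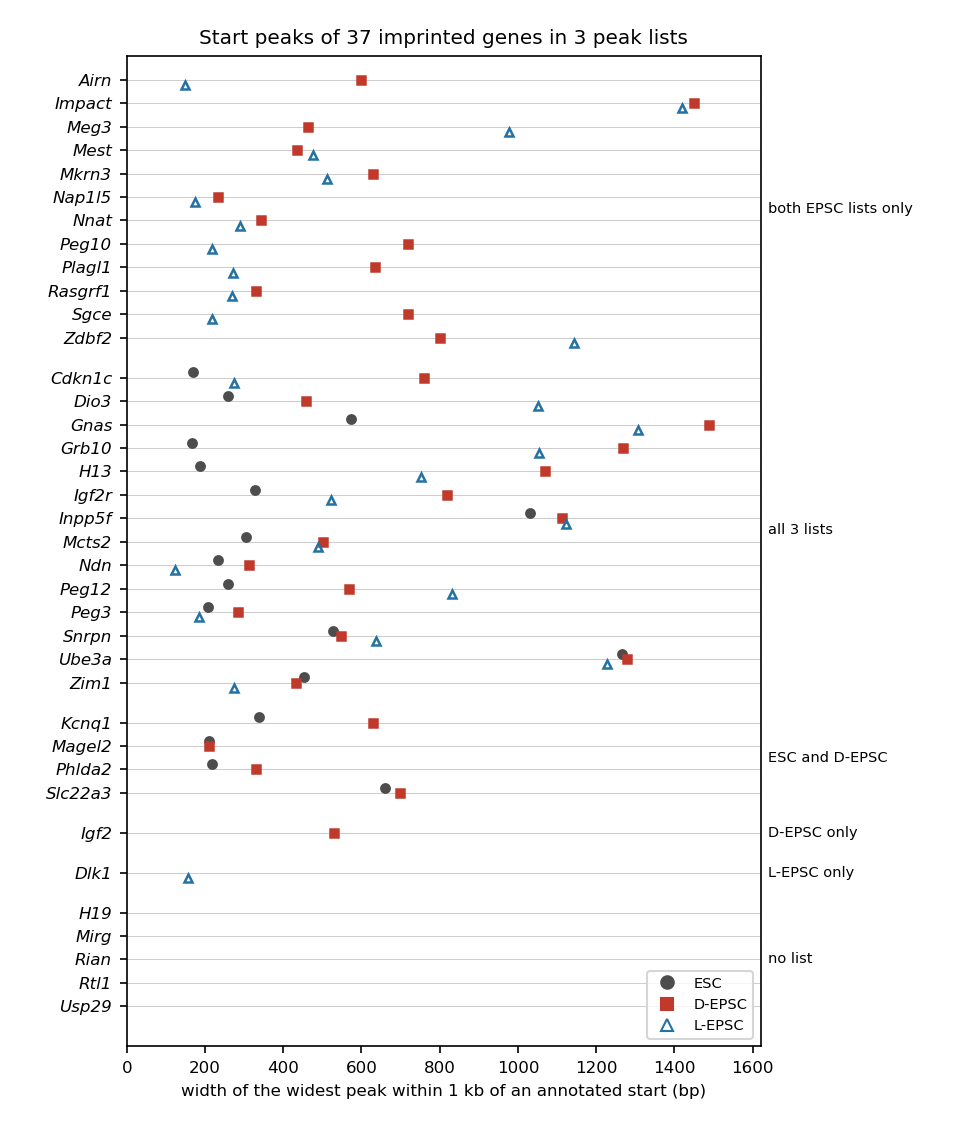
Width in bp (x axis) of the widest peak within 1 kb of a start, for each of the 37 imprinted genes (rows), with ESC as circles, D-EPSC as squares and L-EPSC as open triangles, grouped by the lists with a start peak. Widths run from 124 bp (Ndn, L-EPSC) to 1488 bp (Gnas, D-EPSC), and the 5 lowest rows, H19, Mirg, Rian, Rtl1 and Usp29, hold no point.

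Around the genes, within 10 kb of each, 26 members had a peak in ESCs, against 36 in D-EPSCs and 32 in L-EPSCs. Over all genes the shares were 67.7%, 77.1% and 75.5%. In these 2311 kb there were 49 ESC, 93 D-EPSC and 70 L-EPSC peaks. Per 100 kb that is 2.12 peaks in ESCs, against 4.02 in D-EPSCs and 3.03 in L-EPSCs, beside 1.74, 2.95 and 2.77 around all genes. Relative to ESCs the members had 1.90 times as many peaks in D-EPSCs and 1.43 times as many in L-EPSCs, beside 1.70 and 1.59 times around all genes. With lists of equal length the D-EPSC count near members was 53 and the L-EPSC count 36, below the 49 of ESCs. The counts around all genes were not computed at that length.

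**Figure D5:**
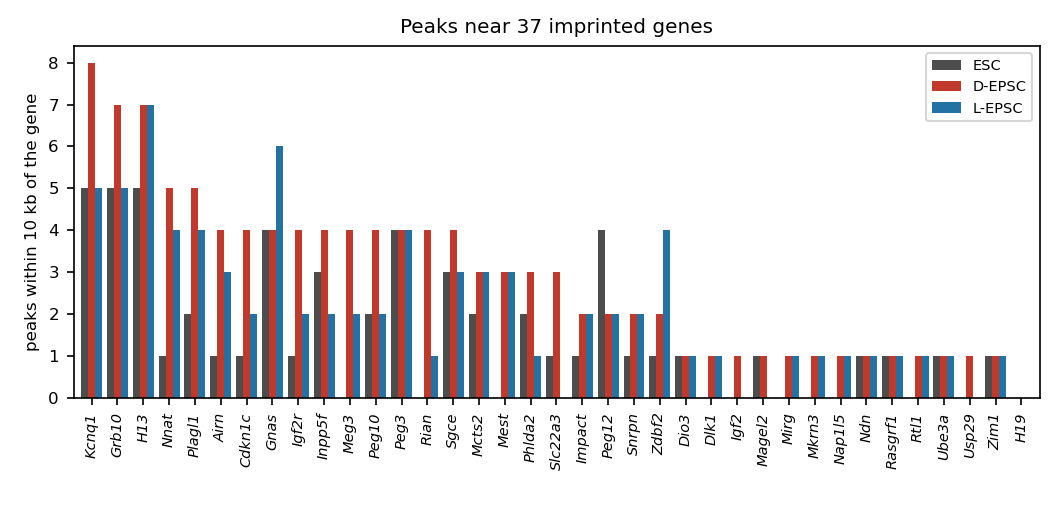
Number of peaks within 10 kb of each of the 37 imprinted genes (bars from 0), by list. H13 has 5 peaks in ESCs and 7 in each EPSC list, Kcnq1 has 5 in ESCs, 8 in D-EPSCs and again 5 in L-EPSCs, and H19 has none.

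The peaks near members merged into 108 regions. Of these, 36 (33.3%) had a peak in all 3 lists, 29 (26.9%) in D-EPSCs only, 23 (21.3%) in both EPSC lists only, 9 (8.33%) in L-EPSCs only. Only the ESC list had a peak in 5 (4.63%). Around all genes these shares were 36.6%, 20.9%, 18.6%, 14.9% and 4.28%. With lists of equal length 14 regions were found in D-EPSCs only and 6 in both EPSC lists only. The shares around all genes were not computed at that length, so whether this fall is particular to the members was not tested.

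By domain, the Igf2r domain (Igf2r, Airn and Slc22a3) had 2 peaks in ESCs, against 10 in D-EPSCs and 4 in L-EPSCs, and the Kcnq1 domain had 10, 19 and 10. The Peg3 domain had 5, 11 and 8, and the H19-Igf2 domain 1, 2 and 1. In the Snrpn domain, by far the longest at 3145 kb, the numbers were nearly equal, with 11 in ESCs, against 12 in D-EPSCs and 11 in L-EPSCs. The Peg10-Sgce domain had 3, 4 and 3 and the Mcts2-H13 domain 5, 7 and 7. Over the whole lists, D-EPSCs had 1.73 times and L-EPSCs 1.61 times as many peaks as ESCs. The counts by domain were not recomputed with lists of equal length.

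The letters TGCCGC were common at the members' starts. In the central 300 bp of the 44 merged regions at member starts, 19 (43.2%) held TGCCGC on either strand, beside 23.9% of all 17372 start regions and 11.2% of all regions. Among start regions found in both EPSC lists only, 7 of 15 member regions (46.7%) held it, beside 22.7% of all such regions. Of the 25 start regions of members with a promoter in a maternally methylated DMR, 17 (68.0%) held it, and of the 19 start regions of the other members 2 (10.5%) did. With 500 bp searched, the shares were 76.0% (19 of 25) and 26.3% (5 of 19), beside 34.0% of all start regions, so the contrast was smaller. The 5 sequences printed above are among the 17. A match describes the letters and does not show that ZFP57 was bound.

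The CTCF consensus CGNGGNGGC was found in 9 of the 44 member start regions (20.5%), beside 20.4% of all start regions and 7.52% of all regions. It lay in 2 of the 25 start regions of members with a maternally methylated DMR promoter and in 7 of the 19 of the other members (36.8%). The YY1 consensus AANATGGCG was found in 1 member start region (2.27%), that of the Peg3 intron, beside 3.89% of all start regions. A CTCF match with C at its second N and A after it also holds GCGGCA, so matches of these 2 consensus sequences can share letters. Median GC content was 64.3% at member start regions and 64.0% at all start regions, and the median ratio of observed to expected CpG was 0.784 and 0.745. These regions all hold a peak. Around annotated starts with or without a peak, median GC content was 62% for members and 58.7% for all genes. The median CpG ratio there was 0.793 for members and 0.642 for all genes. What part this has in the start-peak shares was not tested.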

How the data were processed

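ATAC-seq of 6 libraries was analysed from 3 deposited peak lists, 1 for each cell state, which pool 2 technical replicates in a way not given in the sources used here. Per the labels and methods, the authors checked and trimmed reads with FastQC 0.10.1 and Trim Galore 0.6.3, aligned pairs to mm9 with Bowtie2 2.3.5, kept properly mapped pairs by SAMtools 1.10, and ran MACS with default options. Duplicate removal, transposase shift and blacklist filtering were not stated, and each could change which narrow peaks were called. A deposited list has 4 columns, giving the peak boundaries in bp and a name without any score, so depth is unknown and no test over replicates was possible.

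Genes and sequence came from GENCODE M1 on NCBIM37, the assembly of mm9, using 19 autosomes, X and Y. A start peak overlapped, by at least 1 bp, the 1000 bp on either side of any annotated start. Peaks of different lists were merged where they shared 1 bp. Motifs were searched without mismatch on both strands of the central 300 bp. The comparison genes were all those of the members' 3 biotypes. Every member was accounted for; those whose pattern differed between lists were described in full, then the 5 widest and 5 narrowest of those in all 3 lists, then those with none. Members, related lists, domains and DMR groups were chosen with earlier results of these data known.

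Alternatives were starts within 500 bp or 2.5 kb, the outermost start only, the widest 28965 peaks of each list, a common minimum width of 128 bp, gene bodies or 25 kb, merging at 100 bp, covered bases and a 500 bp motif window. Scripts used Python 3.11.15, numpy 2.4.6, scipy 1.17.1 and matplotlib 3.10.9, and were tested on simulated data and against bedtools 2.31.1.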

Additional observations from a re-analysis of the deposited data

How the results depend on the processing

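Of 58 values recomputed with another distance, start, list length, minimum width, merging rule or motif window, 51 stayed within the limits set for an unchanged value, and 7 moved. The limits were wide. With lists of equal length, merged regions in all 3 lists went from 36 to 24 and still counted as unchanged. So did members with start peaks in ESCs and D-EPSCs, from 4 to 6. Limiting each list to its 28965 widest peaks moved 6 of them. The number of members with a start peak in L-EPSCs then became 16 (27 with full lists) and that with start peaks in both EPSC lists only became 6 (12), while D-EPSC peaks near members became 53 (93) and L-EPSC peaks 36 (70). Both L-EPSC counts thereby turned from above to below those of ESCs (18 members and 49 peaks), and the share of members with an L-EPSC start peak from above to below that of all genes (53.4%). Merged regions near members in both EPSC lists only became 6 (23) and those in D-EPSCs only 14 (29). For peaks and regions near genes, the values around all genes were not computed with lists of equal length. With the outermost start of each gene only, members without a start peak became 9 (5). Member start peaks in ESCs ranged from 16 to 21 and in D-EPSCs from 26 to 32 over the alternatives. No paired analysis was possible because each state has 1 list that pools its technical replicates and no test was made. Leaving out a replicate was likewise not possible. Depth was unknown, so a missing peak, in ESCs above all, cannot be told apart from a peak too weak to be called.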

Other observations

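A related list of 42 further imprinted genes gave 38 in the annotation, chosen with earlier results of these data known. Of these, 21 (55.3%) had start peaks in all 3 lists, 8 (21.1%) in both EPSC lists only and 9 in none, and none had another pattern. Over all genes the shares were 47.8%, 8.87% and 37.5%. The 8 genes were Ascl2, Slc22a18, Klf14, Cobl, Zrsr1, Adam23, Sfmbt2 and Begain. Klf14, a Krüppel-like factor gene, had start peaks of 1501 bp in D-EPSCs versus 559 bp in L-EPSCs with the nearest ESC peak 61869 bp away. Ascl2, a transcription factor gene needed in the placenta, had 847 and 531 bp with an ESC peak 1303 bp away, and Zrsr1, a paternally expressed retrogene, had 1215 and 1163 bp with an ESC peak 1013 bp away, just beyond the distance of 1 kb. Peaks of the same widths were the widest at a start of Commd1, also on the list, which had an ESC start peak of 535 bp and so start peaks in all 3 lists. Begain, beside the Dlk1-Dio3 domain, had 777 and 408 bp with the nearest ESC peak 19724 bp away.

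Of 16 genes listed as linked to the setting or keeping of imprints, 14 had start peaks in all 3 lists, beside 47.8% of all genes. Zfp445 and Dppa3 had none in any list, beside 37.5%. The nearest peaks to Dppa3 were 6647 bp away in ESCs, 1415 bp in D-EPSCs versus 1525 bp in L-EPSCs.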
